A study of Mus musculus with 14 samples.

Results

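The comparison asked how deletion of Mfsd2a in oligodendrocyte precursors changed gene expression in immature oligodendrocytes collected with the O4 antibody. Its members were 7 of the 14 samples of the series, 3 labelled 2afl/fl and 4 labelled 2aOKO, chosen by their labels alone. All came from mouse brain at postnatal day 8, dissociated with papain and sorted on anti-O4 magnetic beads. Animals of both groups carried the floxed Mfsd2a allele (2afl/fl). Those labelled 2aOKO also carried Cre under the Pdgfra promoter, from a transgenic line listed as C57BL/6, so recombination was directed at the precursor stage and at any other cell that has used that promoter. The background strain of the floxed allele, the sex of the pups and whether a sample held more than 1 brain were not given in the sources used here. The study counts its replicates as animals. The other 7 samples held precursor cells (OPCs) sorted on Pdgfra from the same genotypes and entered only the estimate of spread and the side-by-side values.

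Mfsd2a is a membrane transporter that takes up lysophosphatidylcholine, a phospholipid with a single acyl chain that brings polyunsaturated fatty acids such as docosahexaenoic acid into the brain, and is best known in the endothelium of the blood-brain barrier. The transcription factors Srebf1 and Srebf2 are released from the endoplasmic reticulum by their escort protein Scap when membrane lipids run short, and then switch on fatty acid and cholesterol synthesis. The O4 antibody binds sulfatide, a galactolipid that appears on the surface when a precursor commits to the oligodendrocyte fate and stays there while myelin genes are switched on.

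Promoter sequences are shown for 3 genes that the results below turn on: Pnpla3, a lipid droplet acyltransferase and lipase and a known target of Srebf1, the interferon-induced gene Ifit3b, and the MHC class I gene H2-T22. Each is the RefSeq window from 250 bases before to 50 bases after the transcript start, on build GRCm38.p6, read 5′ to 3′ on the strand of the gene. Pnpla3 lies at chr15:84167566-84167865, Ifit3b at chr19:34607707-34608006 and H2-T22 at chr17:36042693-36042992 on the minus strand. Capitals mark matches, on either strand, to CCAAT (the NF-Y box that accompanies many Srebf sites) and to the interferon response element (GAAA, any 2 bases, GAAA).
Pnpla3: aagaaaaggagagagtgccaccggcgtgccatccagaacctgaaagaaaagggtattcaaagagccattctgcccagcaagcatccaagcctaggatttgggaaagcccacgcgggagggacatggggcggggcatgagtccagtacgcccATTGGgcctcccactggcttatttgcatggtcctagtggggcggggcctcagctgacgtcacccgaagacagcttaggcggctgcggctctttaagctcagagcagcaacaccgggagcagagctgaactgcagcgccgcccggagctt
Ifit3b: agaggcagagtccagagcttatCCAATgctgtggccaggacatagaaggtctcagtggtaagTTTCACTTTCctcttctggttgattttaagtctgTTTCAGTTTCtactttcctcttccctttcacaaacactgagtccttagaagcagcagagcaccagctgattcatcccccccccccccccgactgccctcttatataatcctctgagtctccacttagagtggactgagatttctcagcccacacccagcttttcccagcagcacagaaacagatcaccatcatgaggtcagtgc
H2-T22: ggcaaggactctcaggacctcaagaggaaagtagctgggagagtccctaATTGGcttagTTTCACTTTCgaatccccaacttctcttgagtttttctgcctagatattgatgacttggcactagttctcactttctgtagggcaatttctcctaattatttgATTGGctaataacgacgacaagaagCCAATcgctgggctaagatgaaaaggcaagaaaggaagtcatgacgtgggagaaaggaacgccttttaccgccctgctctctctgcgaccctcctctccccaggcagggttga

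CCAAT was present in 37.4% of all 32851 RefSeq mouse promoters of this length, in 60.9% of the 23 fatty acid synthesis genes found there and in 94.4% of 18 cholesterol synthesis genes. The Pnpla3 window held 1 copy, 99 bases before the start, and neither the sterol response element TCACNCCAC (1.24% of all promoters) nor the E-box CACGTG (7.15%). The interferon response element was present in 3.44% of all promoters and in 66.7% of 24 interferon response genes. The Ifit3b window held 2 copies, 188 and 154 bases before the start. The H2-T22 window held 1 copy, 191 bases before the start, and CCAAT at 3 places. The windows of Oasl2 and Ifi44 held neither motif and that of Acy3 held none of the 4. The Mfsd2a window held CCAAT. Scd1 and Tm6sf2 were not matched. These matches describe letters in the reference and not binding.

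The O4 libraries carried the genes that define the sort. Mbp, which encodes the main cytoplasmic myelin protein, ranged from 134987 to 589341 normalised counts over the 7 libraries, Mag (myelin-associated glycoprotein) from 17364 to 49100, and Enpp6, a marker of newly forming oligodendrocytes, from 12585 to 51219. Pdgfra, the precursor marker, remained at 112936 to 185959. The myelin list summed to 1211140, 542892 and 1849472 in 2afl/fl replicates 1 to 3 and to 1164976, 1000391, 1479357 and 823358 in 2aOKO replicates 1 to 4. Both the lowest and the highest sum thus belonged to the 2afl/fl group. Library totals were 35640868 to 41030171 normalised counts. A single read was worth between 0.855 and 1.19 normalised counts, which puts the depth at 32900000 to 43400000 assigned reads per library. On the first principal component (27.6% of variance) 2afl/fl replicate 2 (-38.2) and 2aOKO replicate 3 (40) stood at opposite ends, and on the second (23.4%) 2afl/fl replicate 1 stood apart at 51.4. In these bulk samples fewer cells of a type and less RNA per cell cannot be told apart.

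Mfsd2a itself did not separate the groups. It was measured at 6762, 7777 and 12885 normalised counts in the libraries labelled 2afl/fl and at 7101, 6536, 3615 and 6596 in those labelled 2aOKO. Replicate 3 of 2afl/fl was the highest and replicate 3 of 2aOKO the lowest, while the other 5 libraries lay between 6536 and 7777 and overlapped. The mean was 9141 ± 3281 (SD, n = 3) against 5962 ± 1585 (SD, n = 4), a log2 difference of -0.61 ± 0.32 (SE, limma, unadjusted p = 0.0772, adjusted p = 0.999). An exact permutation test over the 35 ways to divide the 7 libraries gave p = 0.114, two-sided, where the smallest possible value was 0.0286. The difference was -0.80 without 2afl/fl replicate 1, where it passed the study's threshold, -0.33 without 2afl/fl replicate 3, and -0.11 without replicate 3 of either group. With same-numbered OPC and O4 libraries fitted as a correlated pair, it met the study's threshold (unadjusted p = 0.0494 in limma, adjusted p = 0.999). The same-numbered OPC libraries gave nearly the same values, 7585, 7979 and 16340 in 2afl/fl and 7055, 7188, 3665 and 6843 in 2aOKO. The table holds 1 value per gene for Mfsd2a (chr4:122840644-122854982, mm39), so reads from exons outside the floxed segment are included and the value cannot show which exons were lost. Endothelial markers, from cells that express Mfsd2a strongly, summed to 31086 to 58423 in 2afl/fl and to 26568 to 44852 in 2aOKO, and their part in the Mfsd2a level was not tested. All directions below are by label.

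The 5 tested genes on each side of Mfsd2a on chromosome 4 (Col9a2, Zmpste24, Rlf, Ppt1 and Cap1 on one side, Mycl, Trit1, Bmp8b, Oxct2b and Ppie on the other) differed by -0.05 to 0.26 on the log2 scale and 0 of the 10 met a threshold in limma. Their smallest unadjusted p was 0.106, in Zmpste24.

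**Figure D1:**
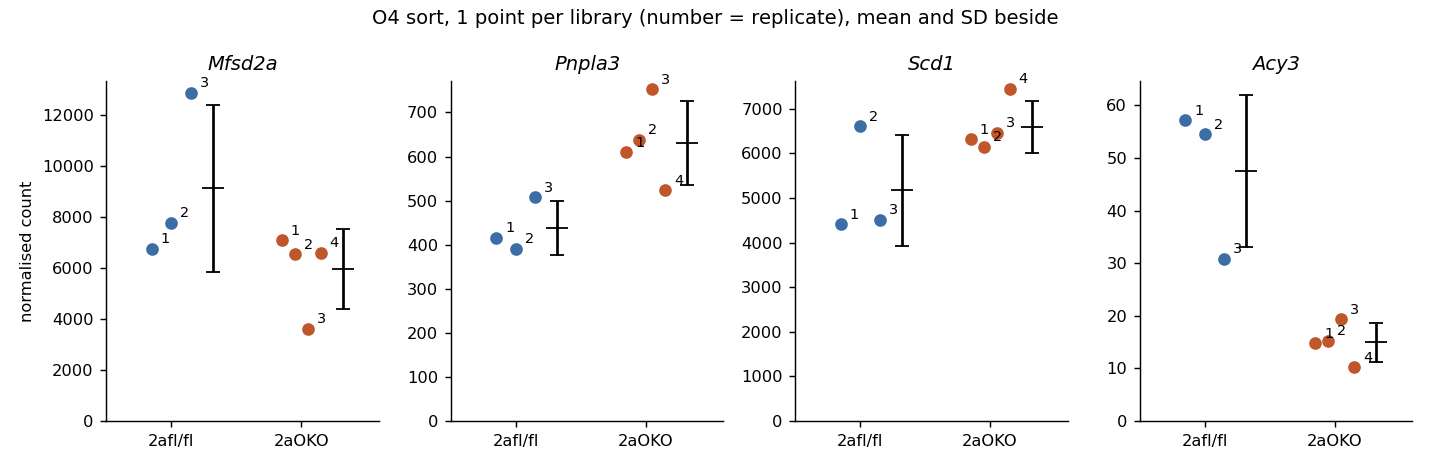
Normalised counts (y axis, from 0) of Mfsd2a, Pnpla3, Scd1 and Acy3 in each O4 library of 2afl/fl (3 points) and 2aOKO (4 points), numbered by replicate, with the group mean and SD drawn beside them. Mfsd2a values overlap between the groups, the 4 Pnpla3 values of 2aOKO lie above all 2afl/fl values, 2afl/fl replicate 2 reaches the 2aOKO level for Scd1, and the 4 Acy3 values of 2aOKO lie below all 2afl/fl values.

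Across 15565 genes with a mean of at least 10 normalised counts, limma called 0 at an adjusted p under 0.05 (0.0% of genes tested, smallest adjusted p = 0.999), and 450 had an unadjusted p under 0.05 (2.89%). With no effect on any gene about 778 would be expected under 0.05, so the 450 with all libraries are no excess. Without 2afl/fl replicate 2 or 3 the number in limma was 1589 or 1990, above that expectation. The study's own threshold, a difference of at least 0.32 on the log2 scale either way with unadjusted p under 0.05, was met by 248 genes (1.59%), 144 higher in 2aOKO (0.925%) and 104 lower (0.668%). The study took its p from DESeq2, and the p here came from limma. A gene named by the study can thus miss the threshold here. The groups did not overlap for 416 genes (2.67%), 178 of them higher (1.14%) and 238 lower (1.53%), and 49.4% of all genes had a higher value in 2aOKO. Genes meeting the threshold were measured at low level, with a median of 117 normalised counts for the higher and 114 for the lower genes against 951 for all others. The median difference of all genes was -0.002 on the log2 scale. No gene named below passed the adjusted test, and each is described by its values and by whether it met the study's threshold.

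The number of genes that met it depended most on which control libraries were included. With 2afl/fl replicate 2 left out, 655 genes met the study's threshold (449 higher, 206 lower) and 0 passed the adjusted test in limma, with 1589 at unadjusted p under 0.05. With 2afl/fl replicate 3 left out, 1117 met it (631 higher, 486 lower), with 1990 at unadjusted p under 0.05 in limma. There 4 genes passed the adjusted test, all higher in 2aOKO: Arhgap5, Ago3, Syne3 and Creb3l2. Ago3, an Argonaute protein of small RNA silencing, was measured at 881 and 1237 in 2afl/fl replicates 1 and 2, at 4076 in replicate 3, and at 2656, 2934, 3246 and 2320 in 2aOKO. Without replicate 3 its log2 difference was 1.41 (limma adjusted p = 0.0111), against 0.75 with it. Arhgap5, a GTPase-activating protein, was measured at 3478, 3515 and 8917 in 2afl/fl and 6197 to 8336 in 2aOKO. In both genes 2afl/fl replicates 1 and 2 lay below every 2aOKO library and replicate 3 above every 2aOKO library. Leaving out 2afl/fl replicate 1 or any 2aOKO replicate gave 218 to 336 genes and 0 adjusted calls in limma, with 317 to 530 at unadjusted p under 0.05. Of the 59 genes named here that met the threshold, 19 kept their call without any single O4 library and 40 lost it without at least 1.

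**Figure D2:**
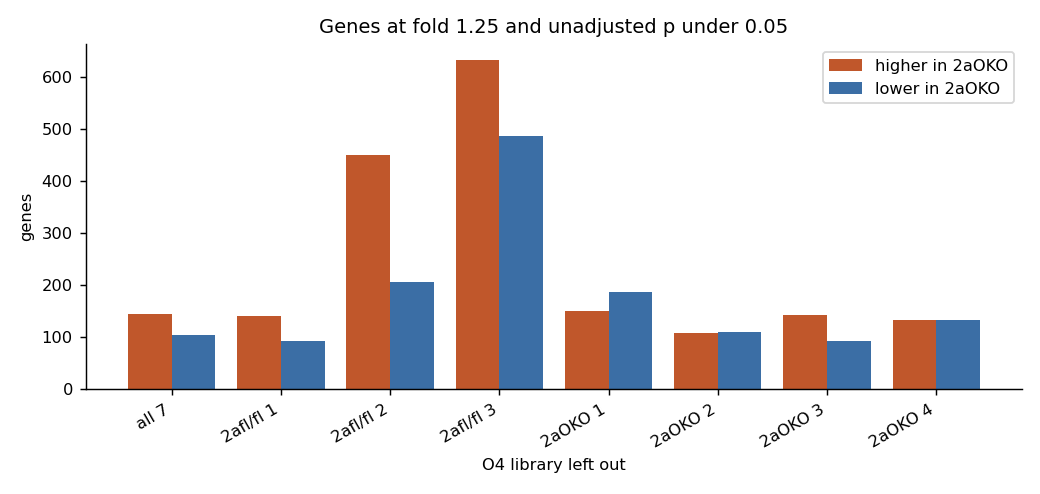
Number of genes (y axis) meeting the study's threshold, higher (orange) or lower (blue) in 2aOKO, with all 7 O4 libraries and with each left out in turn (x axis). The 144 and 104 genes with all libraries become 449 and 206 without 2afl/fl replicate 2 and 631 and 486 without 2afl/fl replicate 3.

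Of 29 fatty acid and triglyceride synthesis genes tested, 3 met the study's threshold, all higher, where 1.59% of all genes did, and 20 had a higher value in 2aOKO. The list median was 0.08 on the log2 scale, against -0.002 for all genes. Without 2afl/fl replicate 1, 2 or 3 it was 0.02, 0.07 or 0.09, with 17, 20 or 21 of 29 higher. In these settings 2, 2 and 1 members were called, all higher. Among all genes 234 of 15555, 655 of 15550 and 1117 of 15575 were called there. The 3 genes called with all libraries were Pnpla3, Scd1 and Tm6sf2. The study named these 3 from the same samples, so their count is not independent evidence of direction. Pnpla3 was measured at 416, 391 and 507 in 2afl/fl and at 610, 638, 753 and 523 in 2aOKO. Every 2aOKO library was above every 2afl/fl library, and the mean was 144% of control (log2 difference 0.52 ± 0.14, limma unadjusted p = 0.00182, adjusted p = 0.999). Pnpla3 met the threshold in all 22 alternatives run, with log2 differences from 0.43 to 0.63. Scd1, a stearoyl-CoA desaturase that makes monounsaturated fatty acids, was measured at 4409, 6617 and 4510 in 2afl/fl and at 6323, 6152, 6463 and 7450 in 2aOKO (log2 difference 0.37 ± 0.12, unadjusted p = 0.00879 in limma). The groups overlapped through 2afl/fl replicate 2, and the call was lost without 2afl/fl replicate 1 (0.27), 2afl/fl replicate 3 (0.28) or 2aOKO replicate 4 (0.31). Tm6sf2, a protein of hepatic lipid secretion, was measured at 10.3, 2.87 and 3.56 in 2afl/fl and at 16.0, 15.3, 21.6 and 15.4 in 2aOKO, a difference of a few reads in each library. Its mean over the 14 libraries, 10.02, reached the minimum of 10 through the 2aOKO O4 libraries where it was high, so it had to differ to be tested, it was tested in only 13 of the 22 alternatives, and it adds nothing to the count of the list. Its call was lost without 2afl/fl replicate 2 (1.32) or 3 (1.44).

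No other lipogenic gene of the list met the threshold. Srebf1, the regulator of the group, was measured at 2355, 2808 and 1919 in 2afl/fl and at 2763, 2225, 2710 and 2779 in 2aOKO, and its groups overlapped (log2 difference 0.16 ± 0.12). Scd2, the main stearoyl-CoA desaturase of brain, was measured at 115897, 115077 and 133293 against 128593, 130111, 148905 and 133246 (0.16 ± 0.11). Fads1, a desaturase of polyunsaturated fatty acids, was measured at 11947 to 12329 in 2afl/fl and 12369 to 13696 in 2aOKO (0.10 ± 0.06). Thrsp, an activator of lipogenesis, was at 21.4, 46.9 and 33.3 against 36.5, 39.3, 65.9 and 48.1. Fasn, the fatty acid synthase, ranged from 22255 to 27464 in 2afl/fl and from 25073 to 30075 in 2aOKO. Among these 5 the groups did not overlap for Fads1 and overlapped for the others.

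Of 26 cholesterol synthesis and uptake genes, 0 met the threshold in limma, 0 had an unadjusted p under 0.05, and 21 had a higher value in 2aOKO, with a median of 0.05. Leaving out 2afl/fl replicate 1 brought this to 13 of 26 and the median to 0.01. Srebf2, the regulator of this branch, was measured at 13455, 15668 and 14746 in 2afl/fl and at 14935, 15199, 15688 and 15883 in 2aOKO (log2 difference 0.08 ± 0.07). Its escort Scap differed by 0.09 ± 0.08, squalene epoxidase (Sqle) by 0.08 ± 0.07 and the last-step reductase Dhcr7 by 0.09 ± 0.08. Tm7sf2, a sterol reductase, differed by 0.11 ± 0.08, and phosphomevalonate kinase (Pmvk) was the member with the smallest p and lay lower, at -0.16 ± 0.11. The groups overlapped for all 6.

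Of 25 genes of lysolipid uptake, acyl activation and reacylation, 1 met the threshold. This was Pla2g3, a secreted phospholipase that releases lysophospholipid, measured at 296, 325 and 248 in 2afl/fl and at 313, 380, 457 and 456 in 2aOKO (log2 difference 0.46 ± 0.17). The groups overlapped, and the call was lost without 2afl/fl replicate 3 (0.35), 2aOKO replicate 3 (0.39) or 2aOKO replicate 4 (0.39). Acsl3, which activates long-chain fatty acids, differed by 0.23 ± 0.14 and Fabp5, a fatty acid carrier, by -0.22 ± 0.15. Of 22 galactolipid and sphingolipid genes, 11 lay higher and 1 met the threshold in the lower direction. The list holds genes that make sulfatide, which the O4 antibody binds, and other sphingolipid genes such as ceramidases. The called gene was Acer2, an alkaline ceramidase, measured at 245, 346 and 261 against 247, 228, 166 and 140 (-0.56 ± 0.23). Its call was lost without 2afl/fl replicate 2 (-0.41), 2aOKO replicate 3 (-0.49) or 2aOKO replicate 4 (-0.41). Acer3, a related ceramidase, was lower in every 2aOKO library (620, 613 and 677 against 573, 559, 599 and 533), a difference of -0.17 ± 0.10 that did not meet the threshold.

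Of 28 myelin genes, 1 met the threshold and 12 had a higher value in 2aOKO, with a median of -0.06. The median was -0.40 without 2afl/fl replicate 2, when 27 of the 28 lay lower, and 0.28 without 2afl/fl replicate 3, when 25 lay higher, so the direction of this list rested on which control library was included. Of 19 genes of committed and newly formed oligodendrocytes, 0 met the threshold in limma or had an unadjusted p under 0.05, and 17 lay higher, with a median of 0.21 that turned to -0.21 without 2afl/fl replicate 2 and was 0.49 without 2afl/fl replicate 3. Bmp4, a secreted signal of this stage, was measured at 5796, 2974 and 9122 against 5911, 8151, 9565 and 6116. Of 20 precursor markers, 1 met the threshold: Tnr, the matrix protein tenascin-R, which was measured at 8660, 21425 and 67852 in 2afl/fl and at 48266, 46146, 56856 and 46034 in 2aOKO. The 2afl/fl libraries spanned the whole 2aOKO range, and the difference of 1.08 became 0.37 without 2afl/fl replicate 1. The call was also lost without 2afl/fl replicate 2 or 2aOKO replicate 1 or 3 (1.01 to 1.09).

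The late oligodendrocyte list was lower in 19 of 25 members, with a median of -0.11, and 0 met the threshold or had an unadjusted p under 0.05 in limma. The median was -0.25 without 2afl/fl replicate 2 and -0.04 without 2afl/fl replicate 3. Sec11c, a signal peptidase subunit, was measured at 1790, 1714 and 1768 in 2afl/fl and at 1644, 1630, 1543 and 1694 in 2aOKO. Its groups did not overlap, but the difference was small (-0.11 ± 0.06). Fth1, the ferritin heavy chain that stores iron in mature oligodendrocytes, was measured at 20085, 20000 and 15780 against 16985, 15204, 13914 and 14753 (-0.29 ± 0.15).

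The study listed 8 genes of late differentiation as lower, by DESeq2 on these same samples. With the limma p used here, 5 of them met the threshold: Acy3, Phlda3, Apod, Efna1 and Mal. That list is not independent evidence of its direction. Acy3, an aminoacylase that removes acetyl groups from aromatic amino acids, was measured at 57.2, 54.5 and 30.9 in 2afl/fl and at 14.8, 15.3, 19.3 and 10.2 in 2aOKO. All 2aOKO values lay below all 2afl/fl values, at a mean of 31.4% of control (log2 difference -1.59 ± 0.34, limma unadjusted p = 0.000341, adjusted p = 0.999), and it met the threshold in all 21 alternatives that tested it. Phlda3, a p53-induced inhibitor of Akt, was measured at 1122, 1129 and 1190 against 1029, 826, 884 and 922, with no overlap (-0.33 ± 0.09). Apod, a lipid-binding apolipoprotein, was measured at 1831, 1721 and 1602 against 1334, 1382, 1021 and 1375, also with no overlap (-0.44 ± 0.15). Efna1, a membrane-bound ephrin, was measured at 659, 745 and 424 against 541, 378, 376 and 362. Mal, a membrane protein of compact myelin, was measured at 1351, 1170 and 3203 against 1165, 832, 940 and 1396. In both of these the groups overlapped, and for Mal the 2afl/fl mean was carried by replicate 3: without it the difference was -0.24 and missed the threshold. The call was also lost without 2aOKO replicate 2 (-0.58) or 3 (-0.63). Efna1 lost it without any library except 2afl/fl replicate 3 and 2aOKO replicate 1 (-0.37 to -0.50). Phlda3 fell short of the fold required without 2afl/fl replicate 3 (-0.30), 2aOKO replicate 2 (-0.28) or 2aOKO replicate 3 (-0.31). The glutathione transferase Mgst3 (-0.40 ± 0.20), the glycosyltransferase Galnt6 (-0.53 ± 0.25) and the tubulin-binding protein Tppp3 (-0.44 ± 0.22) lay lower and missed the threshold with all libraries. The test differs from that of the study, so this does not assess the study's calls.

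The 12 genes with the smallest p among those higher in 2aOKO and measured at a mean of at least 50 were, besides Pnpla3 and Scd1, Dpm1, Abcc10, Zfp442, Aopep, Nhlrc3, Nadsyn1, D130040H23Rik, Prob1, Zfp52 and Swt1. In 10 of the 12 the groups did not overlap, and the log2 differences were 0.33 to 1.05. Overlap was absent in this direction in 1.14% of all genes and in 57 of the 144 called higher. The 12 were picked by p in this same contrast, which favours separated groups, so their count is not independent. Dpm1, the catalytic subunit of dolichol-phosphate mannose synthase, was measured at 205, 190 and 192 in 2afl/fl and at 285, 305, 235 and 267 in 2aOKO (0.47 ± 0.13). It stood at 140% of control and kept its call in all 22 alternatives. Abcc10, a multidrug resistance transporter, was measured at 649, 632 and 685 against 758, 961, 1078 and 790 (0.44 ± 0.13). It lies on chromosome 17, and 2aOKO replicates 2 and 3 were its highest libraries in both sorts. In the OPC sort they stood at 918 and 941, against 638 to 759 in the other libraries. Nadsyn1, which makes the last step of NAD synthesis, was measured at 122, 145 and 147 against 169, 185, 188 and 212 (0.44 ± 0.14). Aopep, an aminopeptidase, was measured at 595, 531 and 511 against 690, 750, 715 and 602 (0.33 ± 0.10). Zfp442 and Zfp52 belong to the zinc finger family, with many similar copies whose reads can be hard to assign. Zfp442 was measured at 308, 535 and 524 against 648, 601, 607 and 666, and Zfp52 at 132, 181 and 145 against 205, 215, 219 and 205. In 2aOKO the 4 values of Zfp52 and of Swt1 (463, 480, 490 and 483, against 271, 357 and 467) were closely grouped. The calls of Zfp442 (0.25), Swt1 (0.23) and D130040H23Rik (0.50) were lost without 2afl/fl replicate 1, and that of Aopep without 2afl/fl replicate 2 or 3 or 2aOKO replicate 2 or 3 (0.29 to 0.32).

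The corresponding 12 lower genes were Phlda3, Npcd, Noct, Mettl15, Odf3l1, Kcnip2, Htatip2, Dusp8, Gpr179, Frs3, Serp2 and Supt3, and in 11 of the 12 the groups did not overlap. Overlap was absent in this direction in 1.53% of all genes and in 49 of the 104 called lower. These 12 were also picked by p in this same contrast, so their count is not independent. Noct, a circadian NADP phosphatase, was measured at 524, 535 and 502 in 2afl/fl and at 435, 421, 323 and 404 in 2aOKO (-0.40 ± 0.11). Kcnip2, a subunit that modulates voltage-gated potassium channels, was measured at 765, 576 and 521 against 487, 451, 346 and 476 (-0.49 ± 0.15). Htatip2, an oxidoreductase, was measured at 151, 131 and 163 against 93.5, 118, 86.4 and 105 (-0.56 ± 0.18). Frs3, an adaptor of fibroblast growth factor receptors, was measured at 511, 452 and 528 against 376, 298, 427 and 360 (-0.45 ± 0.15). Dusp8, a phosphatase of stress-activated kinases, was measured at 1931, 2452 and 1752 against 1746, 1411, 1588 and 1694, where 1752 and 1746, the nearest values of the groups, all but touched, and the difference without 2afl/fl replicate 2 was -0.20. Its call was lost there and without 2aOKO replicate 2 (-0.27), and that of Supt3 without 2afl/fl replicate 1 (-0.25) or 2aOKO replicate 2 (-0.29). Npcd was measured at 1752, 1033 and 999 against 857, 583, 620 and 776 (-0.80 ± 0.23), with no overlap. Odf3l1 was measured at 2108 in 2afl/fl replicate 2, at 20.5 and 13.1 in the other 2afl/fl libraries, and at 0, 0, 0 and 3.07 in 2aOKO. Its OPC library with the same label and number was also the only high one (2420, against 5.11 to 18.9 in the other 6). Cspg4 lies near Odf3l1 on chromosome 9 (starts at 56772388 and 56755943, mm39) and was also highest in 2afl/fl replicate 2. It stood at 98928 there against 30852 to 46311 in the other O4 libraries, and at 116100 against 63380 to 75890 in the OPC sort. A shared cause was not tested. Odf3l1 reached the minimum means for testing and for this ranking only through the O4 and OPC libraries of 2afl/fl replicate 2. Without the O4 library of that replicate the fitted difference of -5.92 was -3.61, and the call was kept. The gene was tested there only through the high OPC library, so the kept call cannot show independence from that replicate. The remaining O4 values were 13.1 and 20.5 against 0 to 3.07.

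**Figure D3:**
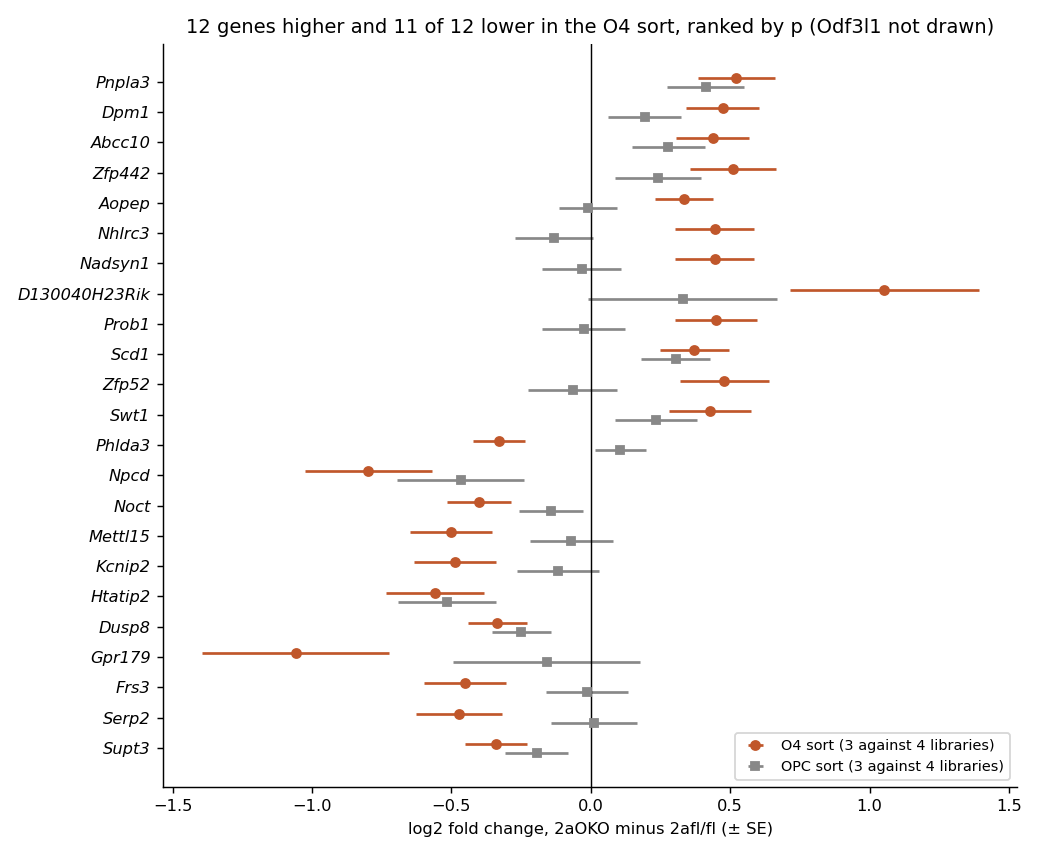
Log2 fold change (x axis, 2aOKO minus 2afl/fl, ± SE) of the 12 higher and 11 of the 12 lower genes with the smallest p in the O4 sort (circles), with the change of the same genes in the OPC sort (squares). Odf3l1 is not drawn because of its scale. Pnpla3 and Scd1 lie above 0 in both sorts, whereas Nhlrc3, Nadsyn1, Prob1 and Zfp52 lie above 0 in the O4 sort and slightly below 0 in the OPC sort. The genes were picked by p in the O4 sort, which favours a larger change there than in the OPC sort.

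Of all genes tested, 50.6% had a lower value in 2aOKO, 0.668% were called lower and 0.925% higher. Without 2afl/fl replicate 2, 206 of 15550 genes were called lower and 449 higher. Without 2afl/fl replicate 3, 486 of 15575 were called lower and 631 higher. Of 31 interferon response genes, 26 had a lower value in 2aOKO, 3 met the threshold, all lower (9.68% of the list), and the median was -0.44. Ifit3b, an antiviral RNA-binding protein, was measured at 35, 49.3 and 38.5 in 2afl/fl and at 23.2, 30.5, 7.51 and 7.75 in 2aOKO (-1.43 ± 0.50), with no overlap. Oasl2, of the oligoadenylate synthetase family, was measured at 129, 241 and 112 against 98.0, 90.5, 31.8 and 81.9 (-1.11 ± 0.39), and Ifi44 at 53.0, 90.9 and 49.9 against 46.7, 40.4, 20.5 and 36.9 (-0.83 ± 0.35). Replicate 2 of 2afl/fl was the highest library for all 3. Without it the median of the list was -0.13, 21 of 31 lay lower and 2 genes met the threshold in the lower direction. The median without 2afl/fl replicate 3 was -0.60, 28 of 31 lay lower and 11 met it in the lower direction, 1 in the higher. Ifit3b kept its call without any single library, whereas Oasl2 lost it without 2afl/fl replicate 2 (-0.78) and Ifi44 without that library (-0.56) or 2aOKO replicate 3 (-0.58). Of 20 MHC class I genes, 15 lay lower and 3 met the threshold (H2-T22 and Psmb9 lower, H2-T10 higher), with a median of -0.26 that was -0.06 without 2afl/fl replicate 2 and -0.40 without 2afl/fl replicate 3, when 9 met the threshold, all lower. Psmb9, a subunit of the immunoproteasome, was measured at 49.5, 45.0 and 16.6 against 18.2, 21.8, 12.5 and 12.3 (-1.04 ± 0.48), and kept its call only without 2afl/fl replicate 3 or 2aOKO replicate 2. The peptide transporter Tap1 (-0.39 ± 0.20) and B2m, the light chain of MHC class I (-0.35 ± 0.18), did not.

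Immediate early genes, which respond within minutes to stimulation or to dissociation, lay lower in 31 of 32 members with a median of -0.31, and 4 met the threshold, all lower: Noct, Plk3, Jun and Ier3. Among all genes tested, 50.6% lay lower and 0.668% were called lower. Without 2afl/fl replicate 2, 206 of 15550 genes were called lower and 449 higher. Without 2afl/fl replicate 3, 486 of 15575 were called lower. Jun was measured at 12491, 15973 and 10244 in 2afl/fl and at 9936, 10718, 10138 and 9283 in 2aOKO (-0.34 ± 0.13), and Plk3, a stress-responsive kinase, at 449, 433 and 476 against 430, 325, 344 and 323. The list summed to 105732, 128517 and 67586 in 2afl/fl and to 87596, 76401, 66846 and 89981 in 2aOKO. Replicate 2 of 2afl/fl was again the highest. Without it the difference of Jun was -0.18 and missed the threshold, and the list median was -0.06 with 22 of 32 lower and 2 called. The list median without 2afl/fl replicate 3 was -0.53, with 32 of 32 lower and 20 called lower. Jun also lost its call without 2aOKO replicate 4 (-0.31). Ier3 lost its call without 2afl/fl replicate 1 or 2 or 2aOKO replicate 2 or 3 (-0.36 to -0.59), Noct only without 2aOKO replicate 3 (-0.31), and Plk3 without 2afl/fl replicate 3 or 2aOKO replicate 2 or 4 (-0.31 to -0.32). Of 34 cell cycle genes, 31 lay lower with a median of -0.15, and 4 met the threshold, all lower: Gmnn, Rpa2, Rmi2 and Cenpm. Gmnn, which blocks relicensing of replication origins, was measured at 351, 344 and 185 against 205, 190, 166 and 167. Without 2afl/fl replicate 2 the cell cycle median turned to 0.07, with 22 of 34 higher, none of the 4 genes kept its call, and 3 genes meeting the threshold in the higher direction. With 2afl/fl replicate 3 left out the median was -0.40, with 34 of 34 lower and 19 called lower. Of 24 endoplasmic reticulum stress genes, 1 met the threshold, Nupr1, measured at 208, 154 and 122 against 127, 141, 47.7 and 86.0, a call lost without 2afl/fl replicate 1 or 2 or 2aOKO replicate 3 or 4 (-0.45 to -0.78).

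**Figure D4:**
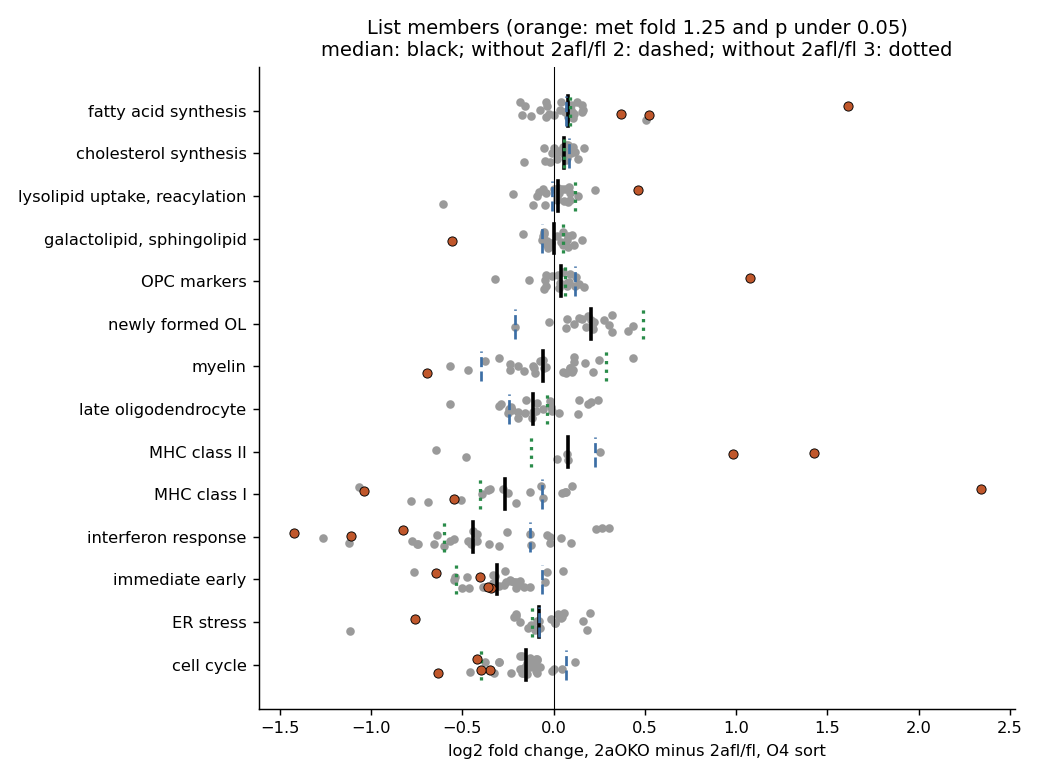
Log2 fold change (x axis, 2aOKO minus 2afl/fl in the O4 sort) of each tested member of 14 gene lists (1 point per gene, orange where the study's threshold was met), with the list median (black bar) and the medians without 2afl/fl replicate 2 (dashed blue bar) and without 2afl/fl replicate 3 (dotted green bar). The medians of the interferon response (-0.44) and immediate early (-0.31) lists move to -0.13 and -0.06 without replicate 2 and to -0.60 and -0.53 without replicate 3, and that of the cell cycle list is 0.07 and -0.40.

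MHC class II genes carry antigen peptides to T cells, and in brain are mainly products of microglia and macrophages. Of 8 tested, 2 met the threshold, both higher, where 0.925% of all genes were called higher: H2-Ab1 and H2-Aa. The list median of 0.08 was 0.23 without 2afl/fl replicate 2 and -0.13 without 2afl/fl replicate 3, with 1 called higher in each. Of all genes, 449 of 15550 and 631 of 15575 were called higher in these settings. H2-Ab1 was measured at 168, 131 and 202 in 2afl/fl and at 150, 515, 754 and 195 in 2aOKO (0.99 ± 0.46, limma unadjusted p = 0.049). Replicates 2 and 3 of 2aOKO were high, and replicates 1 and 4 lay within the 2afl/fl range. H2-Aa was also highest in 2aOKO replicates 2 and 3, at 36.7, 25.8 and 9.50 against 25.1, 104, 89.8 and 48.1 (1.43 ± 0.59). Another class II gene, H2-Eb1, differed by 0.25 on the log2 scale (26.1 to 68.6 in 2aOKO) and missed the threshold. The microglial list summed to 11315 to 17220 in 2afl/fl and to 11484 to 17732 in 2aOKO, highest in 2aOKO replicate 4. Of its 19 genes, 0 were called in limma and 0 had an unadjusted p under 0.05. In the OPC sort both H2-Ab1 (51.0 and 66.2 in 2aOKO replicates 2 and 3, against 83.2 to 127 in the other 5) and H2-Aa (3.86 and 11.6) were not high in those replicates. Both calls were lost without 2aOKO replicate 2 or 3 (0.77 and 0.58 for H2-Ab1, 1.15 and 1.22 for H2-Aa), that of H2-Ab1 also without 2afl/fl replicate 1 or 2 (0.82 without the latter) and that of H2-Aa without 2afl/fl replicate 3 (0.89). The study named both genes, and H2-T10, from these samples.

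The nonclassical class I gene H2-T10 had the same pair of high libraries, at 14.5, 23.8 and 3.56 in 2afl/fl and at 17.1, 159, 196 and 23.6 in 2aOKO (2.34 ± 0.93), and so did Gm8801, another gene of that region, at 10.5, 8.74 and 2.41 against 1.15, 292, 314 and 7.28. For these genes the same-numbered OPC libraries were high as well. H2-T10 stood at 191 and 108 in 2aOKO OPC replicates 2 and 3 and at 17.1 to 47.3 in the other 5 OPC libraries, and Gm8801 at 342 and 222 against 2.14 to 9.63. H2-T22 and H2-T23 were lower in the same replicates, H2-T22 at 743, 833 and 777 against 653, 439, 393 and 734. H2-T genes are similar in sequence, so reads may have been divided among them in ways the table does not show. Without 2aOKO replicate 2 or 3 the calls of H2-T10 (1.88 and 1.78) and of H2-T22 (-0.45 and -0.40) were lost, and that of H2-T10 also without 2afl/fl replicate 3 (1.64).

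Called genes were most frequent on chromosome 17, which carries the MHC, with 25 of 766 tested genes (3.26%, against 1.59% of all genes). In several of them that encode no immune protein the same 2 libraries stood apart. Rps18, a ribosomal protein gene near the MHC (chr17:34170972-34174640, mm39), was measured at 8622, 6321 and 7301 in 2afl/fl and at 6470, 2966, 3590 and 6115 in 2aOKO. Atp6v0c, the proton channel of the vacuolar ATPase, was measured at 10736, 8785 and 9808 against 8568, 4766, 4845 and 8121. Mmut, the mitochondrial methylmalonyl-CoA mutase, was measured at 1400, 1422 and 1590 against 1553, 2085, 2246 and 1670. All 3 met the study's threshold on the group means, while replicates 1 and 4 of 2aOKO lay within or next to the 2afl/fl range. Each call was lost without 2aOKO replicate 2 or 3, with differences of -0.50 and -0.59 for Rps18, -0.49 and -0.49 for Atp6v0c and 0.29 and 0.26 for Mmut. All 3 were also lost without 2afl/fl replicate 1 (-0.58, -0.55 and 0.31), that of Atp6v0c without 2afl/fl replicate 3 (-0.62) and that of Mmut without 2afl/fl replicate 2 (0.32).

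**Figure D5:**
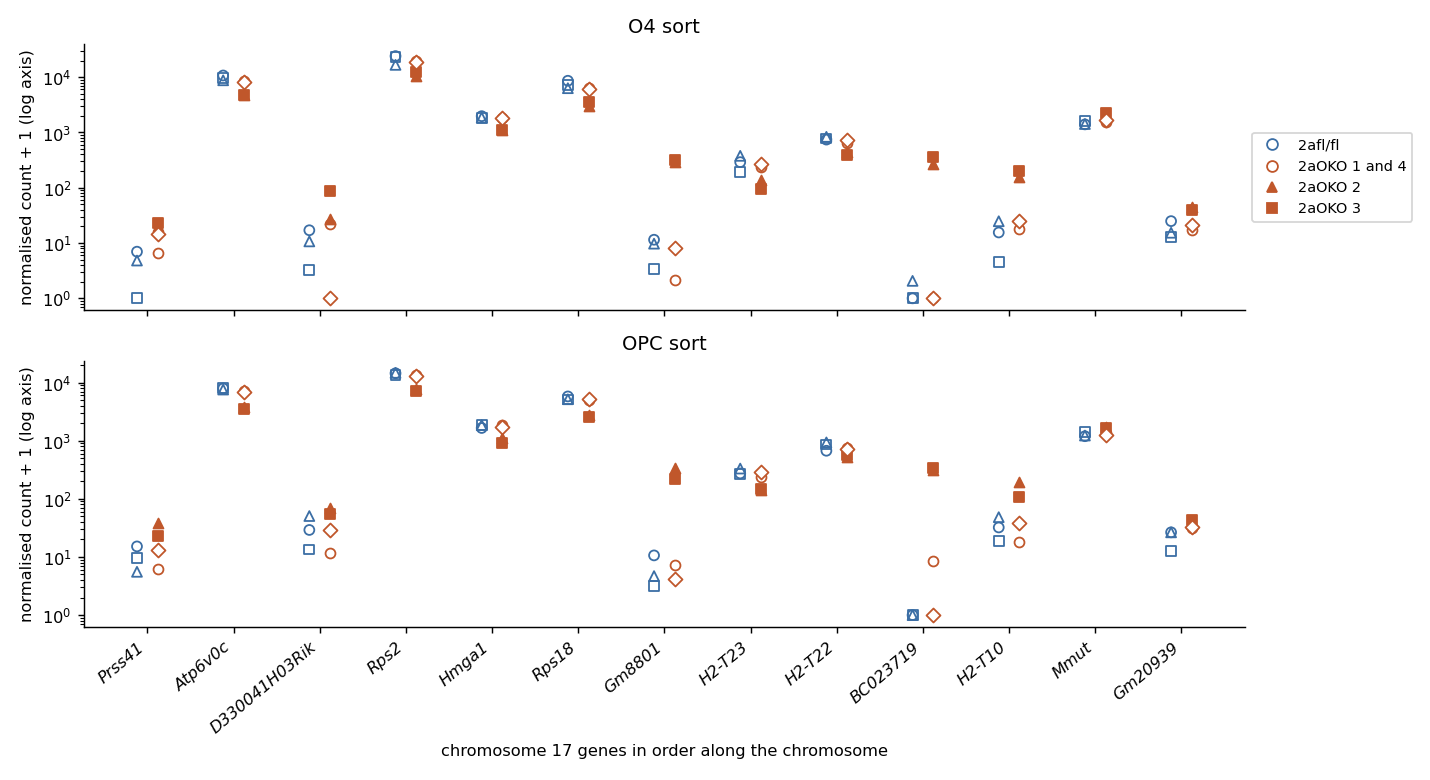
Normalised count + 1 (y axis, log scale) in each O4 library (top) and OPC library (bottom) for 13 genes of chromosome 17, in chromosome order, chosen because 2aOKO replicates 2 and 3 (filled symbols) both lie outside the range of the other 5 libraries in both sorts. For Rps18 the filled symbols lie at 2966 and 3590 in the O4 sort against 6115 to 8622 in the other libraries, and for BC023719 at 272 and 356 against 0 to 1.07. BC023719, Gm8801 and Prss41 reached the minimum mean of 10 only through the filled libraries.

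A group of 5 noncoding transcripts was named by the study in these samples, and 2 met the threshold in the O4 sort with the limma p. The antisense transcript Uckl1os was measured at 17.1, 44.0 and 50.6 in 2afl/fl and at 73.0, 85.1, 59.1 and 61.4 in 2aOKO, with no overlap (1.01 ± 0.42), and the difference was 0.54 without 2afl/fl replicate 1. The call was lost there and without 2aOKO replicate 1 (0.98) or 2 (0.91). The counting was not stated to use strand, so reads of the overlapping gene cannot be told apart. 1190005I06Rik was measured at 48.0, 17.6, 27.0 and 47.9 in 2aOKO and at 3.91 in 2afl/fl replicate 2, with less than 1 read in the other 2afl/fl libraries. In the OPC sort it was not separated, at 82.3, below 1 read and 16.9 in 2afl/fl against 31.6, 5.59, 31.8 and 8.60 in 2aOKO. Slain1os (0.99 ± 0.54), Gm8801 (2.30 ± 1.76) and G530011O06Rik (0.54 ± 0.32) missed the threshold in the O4 sort. In the OPC sort they differed by 1.46 ± 0.54, 2.85 ± 1.76 and 0.81 ± 0.32, so this does not assess the study's statement.

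Markers of other cells moved with some of these groups. All 15 endothelial genes had a lower value in 2aOKO (median -0.25, 0 called in limma and 0 at unadjusted p under 0.05), which became 10 of 15 and a median of -0.02 without 2afl/fl replicate 2, and 15 of 15 with a median of -0.50 and 2 called lower without 2afl/fl replicate 3. Pericyte genes summed to 60135, 131075 and 54631 in 2afl/fl and to 51589 to 69499 in 2aOKO. Erythroid genes summed to 9376, 15558 and 5222 against 5715 to 7120. Replicate 2 of 2afl/fl thus held the highest sum of both. The pericyte list holds Cspg4, also a precursor marker, at 33189, 98928 and 30852 in 2afl/fl and 31596 to 46311 in 2aOKO. This 1 gene made up most of the pericyte sum of 2afl/fl replicate 2, which thus cannot tell pericytes from precursors. That library also held the highest sums of the interferon, immediate early and cell cycle lists and the lowest myelin sum. The part of endothelial, pericyte and erythroid cells in those lists was not tested. Of all genes tested, 49.4% lay higher and 0.925% were called higher. Without 2afl/fl replicate 1, 141 of 15555 genes were called higher, and without 2afl/fl replicate 2, 449 of 15550. Without 2afl/fl replicate 3, 631 of 15575 were called higher and 486 lower. Of 12 ependymal and choroid plexus genes, 10 lay higher with a median of 0.32. Without 2afl/fl replicate 1 this was 11 of 12 with a median of 0.68 and 6 called higher, and without 2afl/fl replicate 2 it was 5 of 12 with a median of -0.06 and 0 called by the study's threshold. With all libraries 2 met the threshold, both higher: the cilia genes Cfap44 (124, 89.9 and 112 against 319, 166, 138 and 193) and Ccdc39 (296, 255 and 281 against 378, 384, 337 and 354). Both calls were lost without 2afl/fl replicate 2 (0.71 and 0.33) or 2aOKO replicate 1 (0.60 and 0.37), and that of Ccdc39 also without 2afl/fl replicate 3 (0.40) or 2aOKO replicate 2 (0.36). The choroid plexus transcript Ttr was highest in 2afl/fl replicate 1 (309056) and 2aOKO replicate 1 (246036), against 62641 to 127750 in the other 5. Foxs1, a mural and mesenchymal transcription factor, lay lower in every 2aOKO library (87.1, 100 and 93.8 against 69.5, 50.2, 59.1 and 64.5), a call lost without any one of the 2afl/fl replicates or without 2aOKO replicate 2 or 3 (-0.54 to -0.68). Of 15 astrocyte genes, 11 had a higher value in 2aOKO (median 0.09), and 0 were called in limma or had an unadjusted p under 0.05. Without 2afl/fl replicate 2, which held the highest astrocyte sum, 15 of 15 lay higher with a median of 0.26 and 5 were called higher. Leaving out 2afl/fl replicate 3 instead gave a median of -0.02, and 0 were called by the study's threshold. Leukocyte defining genes were near 0, with 4 of 17 reaching the filter and a list sum of 119 to 462.

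The difference between the O4 and OPC effects was fitted for every gene. In limma 0 genes passed at an adjusted p under 0.05 (0.0%), and 132 had an unadjusted p under 0.05 (0.848%). About 778 would be expected there with no difference in any gene. This fit took the libraries as independent, while deviations of same-numbered O4 and OPC libraries correlated at 0.16 to 0.328 in the 7 pairs. Fitted as correlated pairs, 0 genes passed the adjusted test as well. Pnpla3 differed between genotypes by 0.52 in the O4 sort and by 0.41 in the OPC sort, and Scd1 by 0.37 and 0.30, with no difference between sorts beyond the error (0.11 ± 0.19 for Pnpla3). Acy3 differed by -1.59 in the O4 sort and by 0.29 in the OPC sort. The difference of these effects was -1.88 ± 0.49 (limma unadjusted p = 0.00155, adjusted p = 0.9999), with OPC values of 29.3, 20.9 and 20.02 in 2afl/fl and 29.7, 35.5, 21.5 and 28.9 in 2aOKO. Phlda3 differed by -0.33 in the O4 sort and 0.11 in the OPC sort (difference -0.44 ± 0.13), and Nhlrc3 by 0.44 and -0.13 (0.58 ± 0.20). Both carried unadjusted interaction p values under 0.05 in limma and missed the adjusted test. Acy3, Phlda3 and Nhlrc3 were named for their difference in the O4 libraries, which is part of this contrast. That choice favours a small interaction p, so these values are not independent evidence of a difference between sorts. Of the 59 genes named here that met the threshold, 47 had the same sign in the OPC sort.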

How the data were processed

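RNA from 14 sorted cell samples of postnatal day 8 mouse brain (900 ng each) was sequenced as paired-end libraries by the authors, who aligned reads to mm39 with STAR 2.7.8a in Partek Flow 10, counted RefSeq genes, and normalised the counts by median ratios. The deposited signal values are these normalised counts. They include fractional shares of reads from the authors' quantification, so they were not treated as raw counts, and no count model was run. Within each O4 library 93.3% to 95.0% of values up to 20 were whole multiples (within 0.05) of the value of 1 read. The deposited table also holds the authors' fold changes and p-values, which were not used.

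Values were analysed as log2(value + 1) with limma 3.58.1 (intensity trend, R 4.3.3) over all 14 libraries, with 1 mean for each of 4 groups and Benjamini-Hochberg adjustment. Genes needed a mean of at least 10 (15565 of 18355). Fold changes understate the change of low genes because of the pseudocount. A gene was called at an adjusted p under 0.05, or by the study's threshold of fold change (0.32 on the log2 scale) with unadjusted p under 0.05. The 12 genes per direction with the smallest p and a mean of at least 50, the genes the study named, up to 6 members of each list and the 5 neighbours on each side of Mfsd2a were named, and genes that changed under an alternative or stood apart on chromosome 17 were added after their values were seen. The members and lists were chosen with earlier results of these data known. The study counts replicates as animals. Same-numbered OPC and O4 libraries are not stated to share an animal and were fitted as independent. Other filters, pseudocounts, scalings, weights, a replicate block and leaving out each O4 library were tried, and a correlated-pair fit and list counts with a control left out were chosen after seeing the data. The fit was tested on simulated data first. Ranges of depth cover counting precision only.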

Additional observations from a re-analysis of the deposited data

Results flagged for a closer look

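In 8 genes, 1 of the 4 2aOKO libraries lay far from the other 3, judged by the gap to its nearest neighbour divided by the range of the group, at a ratio above Dixon's 95% critical value for 4 samples. Of 98 genes examined, chance alone would give about 1 in 20, and no cause was tested. Mfsd2a was lowest in 2aOKO replicate 3 (3615 normalised counts, next 6536, ratio 0.838), and so was Apod (1021, next 1334, ratio 0.867). Tm6sf2 was highest there (21.6, next 16.0, ratio 0.891). Srebf1 (2225, next 2710, ratio 0.875) and Mgst3 (197, next 283, ratio 0.832) were lowest in replicate 2. Efna1 was highest in replicate 1 (541, next 378, ratio 0.911). Mettl15 was highest in replicate 4 (201, next 168, ratio 0.893), and Odf3l1 was above 0 only there (3.07, ratio 1.0).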

How the results depend on the processing

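The count of 248 genes meeting the study's threshold became 377 with no filter on low values, 155 with a mean of at least 50, 145 from the O4 libraries only, 126 with array weights and 808 without replicate 3 of both O4 groups. Leaving out 1 library gave 218 to 1117. The adjusted test gave 0 calls in every alternative except without 2afl/fl replicate 3 (4 genes) and without replicate 3 of both groups (2 genes, Ago3 and Arhgap5), so that range was 0 to 4. The share of called genes that lay higher, 58.06% with all libraries, was 80.95% with array weights, 68.55% without 2afl/fl replicate 2 and 44.64% without 2aOKO replicate 1. Array weights shared 83 genes with the 248. The difference of Mfsd2a ranged from -0.80 to -0.33 over the libraries left out, passing the threshold at -0.80, and passed it at -0.61 when same-numbered OPC and O4 libraries were fitted as a correlated pair. No named gene that was called changed direction.

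With replicate number as a block, 469 genes met the threshold over 14 libraries (45.63% higher) and 321 over the O4 libraries only (47.35% higher), with 0 adjusted calls in both. Deviations of same-numbered O4 libraries correlated at 0.119, 0.0655 and 0.299, and 2 of 3 2afl/fl libraries matched their own number best, so the numbers were not taken to pair the genotypes. Within a genotype, same-numbered O4 and OPC libraries correlated in all 7 pairs (0.16 to 0.328, consensus 0.261), and the fit with these as correlated pairs called 253 genes.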

Other observations

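On chromosome 17, 2aOKO replicates 2 and 3 both lay outside the range of the other 5 O4 libraries by more than 0.3 on the log2 scale in 20 of 766 tested genes (2.61%), and in 13 of these the same-numbered OPC libraries stood apart as well. On all other chromosomes together this held for 106 of 14799 genes, 11 of them also in the OPC sort. This pair of libraries was chosen after the values were seen, so the counts are a description with no test. BC023719, Gm8801 and Prss41, all among the 13, reached the minimum mean of 10 only through these replicates. They had to differ to be tested. Besides the genes given above, those on chromosome 17 included the ribosomal protein gene Rps2 (10450 and 12580 normalised counts against 16710 to 24080) and Hmga1, a chromatin protein (1120 and 1087 against 1816 to 1972).

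Genes with a numbered Zfp symbol, noticed after the values were seen, had a higher value in 2aOKO for 235 of 342, with a median of 0.07, and 10 met the study's threshold in the higher direction and 1 in the lower. Among all genes tested, 49.4% lay higher, 0.925% were called higher and 0.668% lower. Without 2afl/fl replicate 1 the higher values were 153 of 342 and the median -0.01.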
